A study of Mus musculus with 6 samples.

Results

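The endocannabinoid receptor Cnr1 and the 6 main enzymes that make and break down its ligands were examined in the hippocampal RNA-seq of WT and TG mice. The 7 genes were found in the deposited gene table by their symbols (Cnr1, Dagla, Daglb, Mgll, Abhd6, Napepld and Faah). Each symbol had 1 row among the 54532 genes of the table, and all 7 were among the 20952 genes compared between the groups, those whose FPKM averaged 0.1 or more. FPKM is the read count of a gene scaled to the length of the gene and to the size of the library. In TG mice, CRISPR/Cas9 had placed G82R and L85P in exon 3 of Slc1a2, the gene of the astrocytic glutamate transporter GLT-1, on the C57BL/6N background. The WT mice were littermates without these changes, and the labels name no further treatment. There were 3 libraries in each group, numbered as in the labels, and values are listed below in the order 1, 2, 3. The study's WT and TG mice were mostly male with females in both groups, and the line was founded through heterozygous mice. Which sex, age and zygosity the sequenced mice had and whether a library held RNA of 1 animal were not given in the sources used here, so p-values measure the spread between these libraries. Means are given ± SD over the 3 libraries of a group.

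Endocannabinoids are lipids that neurons make on demand and release backwards across the synapse. In the hippocampus, strong activity at glutamate synapses activates phospholipase C beta, diacylglycerol lipases turn its product into 2-arachidonoylglycerol (2-AG), and 2-AG acts on the presynaptic receptor CB1, where it lowers the release of glutamate or GABA. Anandamide, the other well-known ligand, is an N-acylethanolamine with its own enzymes of synthesis and hydrolysis. CB1 RNA is known to be very abundant in cholecystokinin (CCK) interneurons and lower in pyramidal neurons.

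The makers and the breakers of 2-AG are serine hydrolases with a short glycine-X-serine-X-glycine stretch around the serine that attacks the substrate. The coding bases around this serine are shown because they are what Dagla, Daglb, Mgll and Abhd6 have in common. They were read from GENCODE M21 transcripts (GRCm38) in the direction of the transcript, using the principal transcript with the longest coding sequence, and capitals mark the serine codon.
Dagla: gtggtaggccacTCCttgggagcaggc
Daglb: ctggtggggcacAGCctaggagccggc
Mgll: ctcctgggccacTCCatgggcggtgcc
Abhd6: cttataggcaccTCCatgggtggccac
The serine is codon 472 of Dagla, in exon 14 (chr19:10254905-10254907, minus strand). In Daglb it is codon 443, in exon 11 (chr5:143494569-143494571, plus strand). In Mgll it is codon 122, in exon 4 (chr6:88808142-88808144, plus strand). In Abhd6 it is codon 148, in exon 5 (chr14:8042745-8042747, plus strand). Of the 27 bases, 19 were identical between Dagla and Daglb, 18 between Mgll and Abhd6 and also between Dagla and Mgll, 16 between Dagla and Abhd6 and between Daglb and Mgll, and 13 between Daglb and Abhd6. Pairs of a maker and a breaker were thus not all below the pair of breakers. The stretches were found by their shared glycine-X-serine-X-glycine pattern, so part of the identity was given in advance. Differences of a few bases in 27 say nothing about how makers and breakers are related.

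The libraries held 16081281 to 18751057 reads on genes, recovered from FPKM times gene length, and the 7 genes had 549 to 3989 reads in a library. Slc1a2, the mutated gene, had an FPKM of 202, 199.5 and 177 in WT mice, against 222, 207 and 217 in TG mice. The TG libraries lay above, as in 6.35% of all genes tested. This is RNA, whereas by Western blot the paper reports that GLT-1 protein was almost lost in the TG hippocampus. FPKM carries no base calls, so it does not check the mutation itself. All 7 hippocampal markers were detected, with summed FPKM of 150.2 to 178 in WT and 149 to 172 in TG libraries. Markers of the choroid plexus, which makes the cerebrospinal fluid, summed to 57.8 to 82.6 in WT libraries and to 1216, 3842 and 66.3 in the TG libraries, so TG1 and TG2 stood apart.

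No difference between TG and WT mice was detected in any of the 7 genes. At an adjusted p under 0.05, 0 of 7 were called in limma (smallest adjusted p 0.789), where 0.00955% of all genes tested were called, 0.00477% higher and 0.00477% lower. At an unadjusted p under 0.05 the count was also 0 of 7, beside 5.91% of all genes tested. The groups overlapped in all 7 genes, while 12.1% of all genes tested had groups that did not overlap. On the log2 scale 5 of the 7 means were higher and 2 lower in TG mice, with differences from -0.07 to 0.13 and a median of 0.05, against a median of -0.0020 over all genes tested. The median size of the difference, without its sign, was 0.07 in the 7 genes and 0.15 over all genes tested. These 2 medians are not at like precision. The median standard error was 0.166 over all genes tested, and the 7 genes had 0.0665 (Napepld) to 0.142 (Dagla). The smaller median thus does not set the 7 genes apart. At the widest, the 95% intervals of the 7 genes reached a change of -17.2% (Cnr1) in one direction and of 37.5% (Dagla) in the other.

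**Figure D1:**
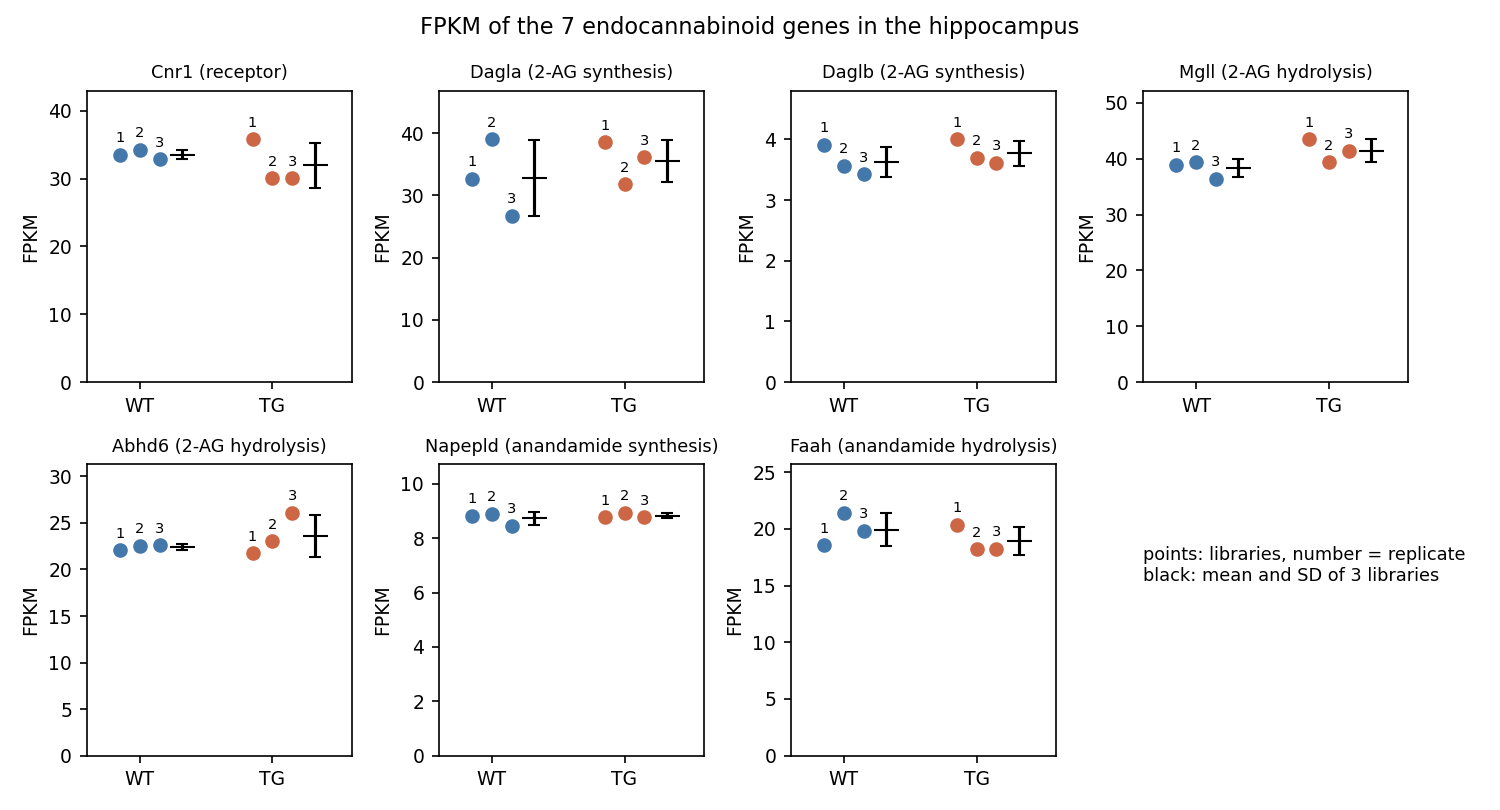
FPKM (vertical axes, from 0) of the 7 genes in each of the 3 WT and 3 TG libraries, with the mean and SD of 3 libraries in black. The groups overlap in all 7 panels, and the Dagla points of the WT libraries spread from 26.7 to 39.1.

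Cnr1 encodes CB1 (ENSMUSG00000044288, chr4:33924593-33948831 in GRCm38, plus strand). Its FPKM was 33.5, 34.2 and 32.8 in WT mice, against 35.8, 30.1 and 30.005 in TG mice. TG1 lay above all WT libraries, whereas TG2 and TG3 lay below them, so the groups overlapped. The means were 33.5 ± 0.704 in WT and 31.96 ± 3.33 in TG mice, a difference of -0.07 on the log2 scale (standard error 0.0847, 95% interval from -0.27 to 0.13, adjusted p = 0.836 in limma). Single TG libraries moved this value. It was -0.16 without TG1 (unadjusted p = 0.0506, adjusted p = 0.918 in limma), -0.032 without TG2 (unadjusted p = 0.758) and -0.030 without TG3 (unadjusted p = 0.773). The SD was 2.10% of the mean in WT libraries, near the 1.61% that counting alone gives at this depth, and 10.4% in TG libraries, where counting gives 1.68%. Over both groups the spread of Cnr1 was ordinary for its level. Its SD within groups on the log2 scale was 0.105, and 46.3% of 1409 genes of like level (mean FPKM within 1.5 times) had a smaller one, with a median of 0.110.

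Because CB1 RNA is abundant in CCK interneurons, their markers are given beside it. All 7 markers averaged an FPKM of 0.1 or more, and they summed to 230.5 to 352 in WT and 236 to 253 in TG libraries. Most of this sum is Cck, which pyramidal neurons also express and which reached 328 in WT3. Relative to the WT mean, the median of the list on the log2 scale was -0.05, -0.22 and 0.17 in WT mice, against 0.02, -0.20 and -0.12 in TG mice. In bulk tissue, fewer cells of a type and less RNA per cell cannot be told apart.

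Dagla encodes diacylglycerol lipase alpha, the main source of synaptic 2-AG (ENSMUSG00000035735, chr19:10245265-10304877, minus strand). Its FPKM was 32.7, 39.1 and 26.7 in WT mice, against 38.5, 31.8 and 36.2 in TG mice. The lowest and the highest of the 6 values were both from WT libraries, and all TG libraries lay between them. The means were 32.8 ± 6.15 in WT and 35.5 ± 3.39 in TG mice, a difference of 0.13 on the log2 scale (95% interval from -0.21 to 0.46, adjusted p = 0.832 in limma). Without WT3 the sign turned, to -0.013, and without WT2 the difference rose to 0.26 (unadjusted p = 0.0801, adjusted p = 0.657 in limma).

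Dagla had the widest range of the 7 genes over the 6 libraries, mainly through the WT libraries. Its highest value was 1.46 times its lowest, while this factor lay between 1.06 and 1.202 for the others. Its SD within groups on the log2 scale was 0.22, and 92.5% of 1352 genes of like level (mean FPKM within 1.5 times) had a smaller one, with a median of 0.11. On 2878 to 3625 reads in WT libraries, counting alone gives an SD of 1.73% of the mean, and the SD observed was 18.7%. In TG libraries it was 9.56%, beside 10.4% for Cnr1 and 9.51% for Abhd6.

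**Figure D2:**
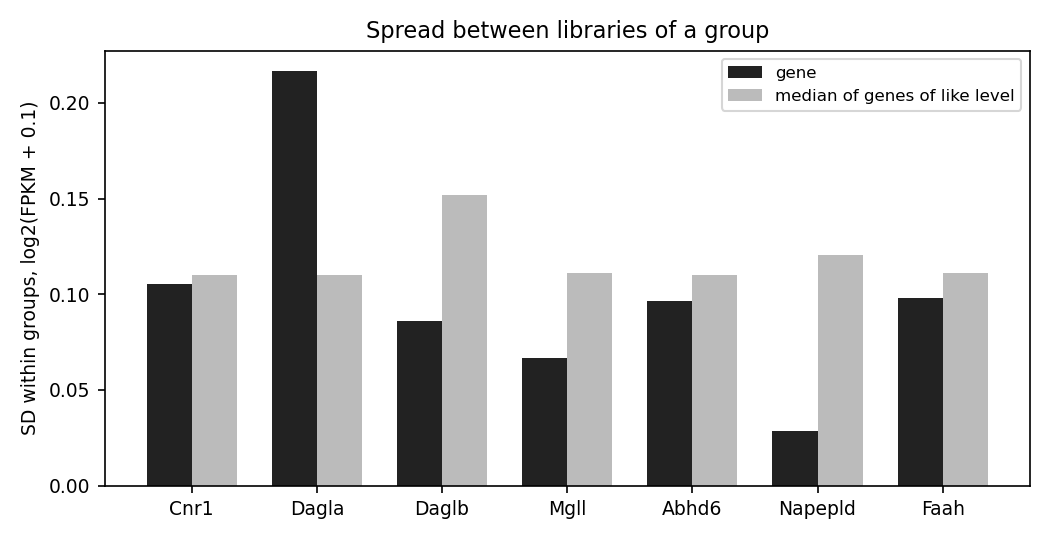
SD between libraries within groups on log2(FPKM + 0.1) for each of the 7 genes (black bars) and the median SD of genes with a mean FPKM within 1.5 times of it (grey bars). Dagla has 0.22 against 0.11, and Napepld 0.03 against 0.12.

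Daglb encodes diacylglycerol lipase beta, the other 2-AG-forming lipase, best known from microglia and macrophages (ENSMUSG00000039206, chr5:143464584-143505942, plus strand). Its FPKM was 3.91, 3.57 and 3.42 in WT mice, against 4.003, 3.70 and 3.61 in TG mice, and the groups overlapped. The difference was 0.05 on the log2 scale (95% interval from -0.18 to 0.28, adjusted p = 0.898 in limma). It was 0.11 without WT1, where the TG libraries lay above the other WT libraries, 0.013 without WT3 and 0.011 without TG1. Of the 9567 bases of its length, 2309 (24.1%) lie in exons of Rac1 on the opposite strand, a gene with an FPKM of 61.7 to 70.5. How reads in this overlap were assigned was not stated, so the level of Daglb is uncertain. Dagla made up 89.9% ± 1.56 of the summed FPKM of both lipases in WT and 90.4% ± 0.688 in TG mice (n = 3 libraries in each group, two-sided exact permutation p = 0.7).

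The 6 microglial markers summed to an FPKM of 135 to 151 in WT and 124 to 170 in TG libraries. Relative to the WT mean, their median on the log2 scale was -0.24, 0.24 and 0.23 in the TG libraries. In Daglb, TG1 was the highest of the TG libraries. The part of microglia in the level of Daglb was not tested.

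Mgll encodes monoglyceride lipase, the presynaptic enzyme that removes most 2-AG in brain (ENSMUSG00000033174, chr6:88724412-88828360, plus strand). Its FPKM was 39.0, 39.4 and 36.4 in WT mice, against 43.5, 39.4 and 41.5 in TG mice. TG1 and TG3 lay above all WT libraries, and TG2 lay just under WT2. The means were 38.3 ± 1.61 in WT and 41.5 ± 2.06 in TG mice, a difference of 0.12 on the log2 scale (standard error 0.0690, 95% interval from -0.05 to 0.28). Its p was the smallest of the 7 genes (unadjusted p = 0.137, adjusted p = 0.789 in limma). With each library left out in turn, the difference lay between 0.08 and 0.15. The antisense gene Gm26588 shares 167 bases, or 3.29%, of the length of Mgll.

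Abhd6 encodes a postsynaptic hydrolase that removes part of the 2-AG near its site of synthesis (ENSMUSG00000025277, chr14:8002902-8056763, plus strand). Its FPKM was 22.0, 22.5 and 22.6 in WT mice, against 21.7, 23.0 and 26.1 in TG mice. TG1 lay below and TG2 and TG3 above the narrow range of the WT libraries. The difference was 0.07 on the log2 scale (95% interval from -0.12 to 0.26, adjusted p = 0.828 in limma), and without TG3 it was -0.00092. TG3 is the TG library with choroid plexus markers in the WT range. Compared alone with the WT libraries, it gave a difference of 0.22, which rests on 1 TG library. The same comparison gave 0.16 for Dagla, 0.12 for Mgll, -0.16 for Cnr1 and -0.12 for Faah. It gave -0.0057 for Daglb and 0.0087 for Napepld. The SD of Abhd6 in WT libraries was 1.33% of the mean, below the 3.26% that counting alone gives. Mgll made up 63.1% ± 1.17 of the summed FPKM of Mgll and Abhd6 in WT and 63.7% ± 2.72 in TG mice (n = 3 libraries in each group, two-sided exact permutation p = 0.9).

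Napepld encodes N-acyl phosphatidylethanolamine phospholipase D, which releases anandamide and other N-acylethanolamines from membrane precursors (ENSMUSG00000044968, chr5:21662901-21701396, minus strand). Its FPKM was 8.82, 8.89 and 8.47 in WT mice, against 8.77, 8.94 and 8.78 in TG mice, all within a factor of 1.06. The difference was 0.02 on the log2 scale (95% interval from -0.14 to 0.17, adjusted p = 0.955 in limma). On 549 to 645 reads, counting alone gives an SD of 4.04% of the mean in WT and 4.07% in TG libraries, and the observed 2.60% and 1.09% were below this. Of 3235 genes of like level, 0.742% had a smaller SD within groups.

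Faah encodes fatty acid amide hydrolase, the enzyme that ends the action of anandamide (ENSMUSG00000034171, chr4:115967145-116017926, minus strand). Its FPKM was 18.5, 21.4 and 19.9 in WT mice, against 20.3, 18.2 and 18.3 in TG mice. TG2 and TG3 lay below all WT libraries and TG1 inside their range. The difference was -0.07 on the log2 scale (95% interval from -0.27 to 0.12, adjusted p = 0.828 in limma). It was -0.13 without WT1 or without TG1, and -0.021 without WT2.

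FPKM is scaled to gene length, here that of all annotated exons of a gene together, so an order between genes depends on this length. Where the main transcript is shorter than this, FPKM understates the gene. Faah, for example, had 2522 to 2912 reads on 7834 bases (8 transcripts), and Abhd6 813 to 1115 on 2365 bases (3 transcripts). The levels of shares and ratios between genes carry the same limit. By mean FPKM over the 6 libraries the order was Mgll (39.9), Dagla (34.2), Cnr1 (32.7), Abhd6 (23.0), Faah (19.4), Napepld (8.78) and Daglb (3.70). Among the 20952 genes tested, Mgll was at rank 1193 by mean FPKM and Daglb at rank 8974. The ranges of Mgll and Dagla over libraries overlapped, yet within each of the 6 libraries Mgll was above Dagla, by a factor of 1.01 to 1.36. Dagla was above Cnr1 in 4 of 6 libraries, so the order of these neighbours was not the same in all libraries. From Cnr1 down, the range of each gene lay apart from that of the next. The smallest ratio to the next gene in a library was 1.15 for Cnr1 to Abhd6, 1.05 for Abhd6 to Faah, 2.03 for Faah to Napepld and 2.19 for Napepld to Daglb.

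The balance of making and removing a ligand was compared as a ratio within each library, which does not depend on the scaling of the library. For 2-AG, the summed FPKM of Dagla and Daglb over that of Mgll and Abhd6 was 0.5999, 0.688 and 0.511 in WT mice, against 0.652, 0.569 and 0.588 in TG mice. The TG ratios lay inside the WT range. The means were 0.5997 ± 0.0883 and 0.603 ± 0.0433, a difference of 0.02 on the log2 scale (n = 3 libraries in each group, two-sided exact permutation p = 1.0, where the smallest possible is 0.1). Its sign rests on single libraries, since it was -0.093 without WT3 and -0.041 without TG1. For anandamide, the FPKM of Napepld over that of Faah was 0.476, 0.415 and 0.426 in WT mice, against 0.431, 0.492 and 0.481 in TG mice. TG2 and TG3 lay above all WT ratios and TG1 inside their range. The means were 0.439 ± 0.0324 and 0.468 ± 0.0322, a difference of 0.09 on the log2 scale (n = 3 libraries in each group, two-sided exact permutation p = 0.2).

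**Figure D3:**
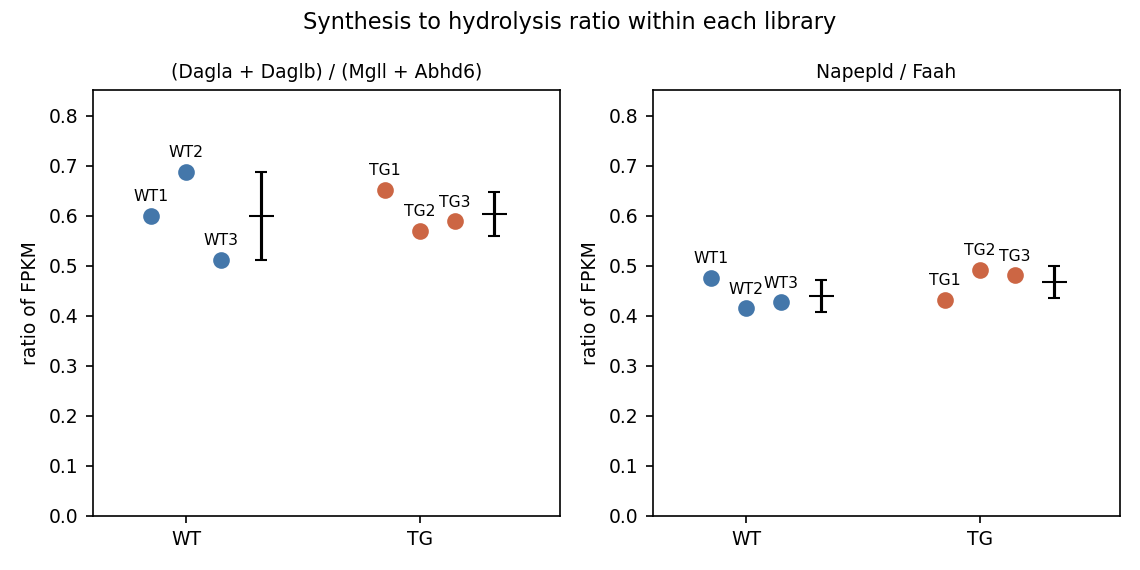
Ratio of FPKM (vertical axes, from 0) of the enzymes of synthesis to those of hydrolysis for 2-AG (left) and anandamide (right) in each library, with the mean and SD of 3 libraries in black. The TG points lie inside the WT range on the left, and TG2 and TG3 lie above the WT points on the right.

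Across the 6 libraries, log2(FPKM + 0.1) of the 21 pairs among the 7 genes had Pearson correlations from -0.78 (Cnr1 with Abhd6) to 0.82 (Dagla with Mgll), with Cnr1 and Faah at 0.77. These describe 6 libraries of 2 genotypes whose genes share depth and tissue makeup. Among 11916 protein-coding genes with a mean FPKM of 1 or more, the profiles most like that of Cnr1 over the 6 libraries were those of Trpc4ap (Pearson correlation 0.99), Gtf2f1 (0.98) and Mttp (0.98). Like Cnr1, each was highest in TG1 and lowest in TG2 and TG3. They were picked as the most alike of 11916 genes over only 6 libraries, so this shared order is no separate result. A link to Cnr1 was not tested.

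A list of 34 other genes of the pathway was compared in the same fit. Of these, 29 were tested and 0 had an adjusted p under 0.05 in limma (smallest adjusted p 0.786). At an unadjusted p under 0.05, Ppara was higher and Fabp7 lower in TG mice, 2 of 29 beside 3.13% higher and 2.78% lower over all genes tested. The median difference of the 29 genes was 0.04 on the log2 scale, with 18 higher and 11 lower. The groups did not overlap in 2 of the 29, Gna11 and Plcb2, both with the TG libraries above and named here after their values were seen (6.35% of all genes tested had TG above and 5.71% below). Gna11, a G protein that drives phospholipase C beta, had an FPKM of 40.3 ± 3.28 in WT and 44.5 ± 3.04 in TG mice (unadjusted p = 0.135 in limma). Plcb2, a form of phospholipase C beta better known from blood cells, had 0.426 ± 0.0154 and 0.537 ± 0.0310 on 44 to 64 reads (unadjusted p = 0.230 in limma).

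Among other receptors of these lipids, the nuclear receptor Ppara was the most abundant. Its FPKM was 0.804, 0.403 and 0.446 in WT mice, against 0.955, 0.771 and 0.909 in TG mice, on 25 to 63 reads. WT1 lay inside the TG range. The difference of Ppara was 0.63 on the log2 scale (95% interval from 0.00016 to 1.27, unadjusted p = 0.04995, adjusted p = 0.786 in limma). It lay between 0.47 (without WT2, unadjusted p = 0.143) and 0.90 (without WT1, unadjusted p = 0.00712) when single libraries were left out. Cnr2, the cannabinoid receptor of immune cells, had 3 to 13 reads in a library and a difference of 0.46 with a 95% interval from -0.54 to 1.46. Gpr18 and Trpv1 had at most 3 and 2 reads in a library and Gpr119 had 0 in each, so these receptors were not measurable at this depth and were not tested.

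No gene among the CB1-binding proteins, the Gi/o proteins that carry the CB1 signal or the genes of diacylglycerol supply had an unadjusted p under 0.05. The more abundant of the CB1-binding proteins over the 6 libraries, Sgip1, which slows the uptake of CB1 into the cell, had an FPKM of 15.6 ± 0.710 in WT and 15.9 ± 0.741 in TG mice. The most abundant Gi/o gene, Gnai1, had 75.5 ± 4.61 and 70.8 ± 5.58. In the supply of diacylglycerol the most abundant was Gnaq, with 45.6 ± 3.39 and 46.7 ± 3.83.

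Other routes of N-acylethanolamine synthesis were led by Gde1, a glycerophosphodiesterase, with an FPKM of 100.3 ± 9.45 in WT and 98.1 ± 4.75 in TG mice. None of the tested genes of this group had an unadjusted p under 0.05, and Ptpn22 and Hrasls5, with at most 20 and 2 reads, were not tested. Among the other enzymes of breakdown, none of which had an unadjusted p under 0.05, Abhd12, a further 2-AG hydrolase, had 109 ± 6.91 and 104 ± 6.04. Its FPKM was above those of Mgll and Abhd6 in each library.

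Some of the fatty acid binding proteins carry anandamide inside cells. Fabp3, the most abundant of those listed, had an FPKM of 60.3 ± 8.73 in WT and 54.0 ± 6.60 in TG mice (unadjusted p = 0.259 in limma). Fabp7, typical of astrocytes and neural progenitors, had 12.4, 7.23 and 9.14 in WT mice, against 4.80, 7.85 and 6.60 in TG mice. TG2 lay above WT2, so the groups overlapped. The difference of Fabp7 was -0.56 on the log2 scale (standard error 0.233, unadjusted p = 0.0448, adjusted p = 0.786 in limma). With single libraries left out it lay between -0.75 (without WT2, unadjusted p = 0.0166) and -0.36 (without WT1, unadjusted p = 0.145). The 5 astrocyte markers summed to an FPKM of 438 to 497 in WT and 438 to 465 in TG libraries.

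**Figure D4:**
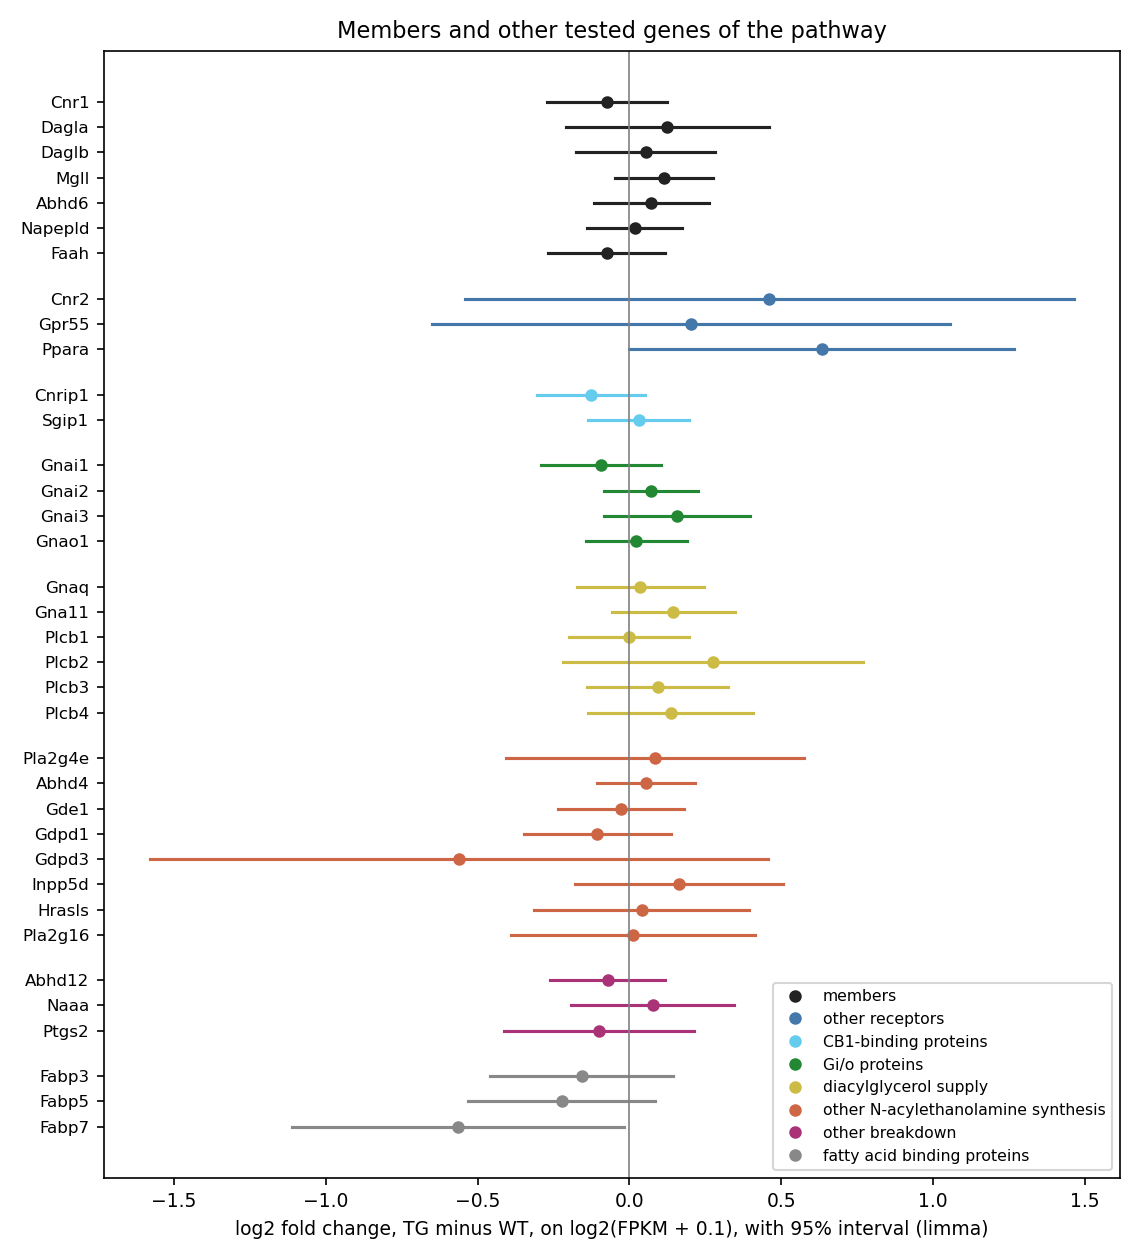
Difference of TG minus WT on log2(FPKM + 0.1) (horizontal axis) with its 95% interval from limma for the 7 genes (black, labelled members) and the 29 other tested genes of the pathway, coloured by role. The intervals of the 7 genes all include 0, while those of Ppara and Fabp7 end just beside it.

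The 6 striatal markers summed to an FPKM of 23.3 to 25.4 in WT and 25.4 to 34.1 in TG libraries. The highest sum, in TG2, is mostly Ppp1r1b (27.3), which is also expressed outside the striatum, and the medians of the list relative to the WT mean overlapped (-0.09 to 0.14 in WT and -0.14 to 0.15 in TG libraries on the log2 scale). The 6 oligodendrocyte markers summed to 497 to 628 in WT and 388 to 577 in TG libraries, lowest in TG1. The sums were 93.6 to 104 and 91.3 to 109 for the 3 GABAergic, 1574 to 1705 and 1599 to 1792 for the 4 glutamatergic, 42.1 to 47.4 and 44.7 to 49.0 for the 4 endothelial, and 11.4 to 14.3 and 12.6 to 13.6 for the 5 thalamic markers. With the level of the choroid plexus markers as a covariate, the difference of Abhd6 was 0.19 in place of 0.07 on the log2 scale. The difference of Dagla was 0.19 in place of 0.13, of Mgll 0.14 in place of 0.12 and of Cnr1 -0.10 in place of -0.07. For Daglb it was 0.0088 in place of 0.05, for Napepld 0.0017 in place of 0.02 and for Faah -0.08 in place of -0.07. Abhd6 had the smallest unadjusted p of these genes (0.126 in limma), and standard errors rose, as from 0.098 to 0.150 for Daglb. The covariate was 1.72 in TG1, 3.28 in TG2 and -1.22 in TG3, against -1.49 to -0.94 in WT libraries. Of the TG libraries only TG3 lay in the WT range, so these differences rest largely on TG3. The part of the oligodendrocyte markers in these differences was not tested.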

How the data were processed

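Hippocampal RNA of WT and TG mice was sequenced in 3 libraries of each group. Per the paper's methods, the authors counted reads per gene with HTSeq and deposited FPKM computed from gene length and read count, with 1 column per library. The submitters' processing notes name GRCm38 (mm10), and start, end and exon length of all 7 genes equalled those in GENCODE M21. The aligner and strand setting were not given in the sources used here, and the methods and the labels name different extraction and library kits. Because FPKM divides by the full exon length, reads lost where genes overlap lower the value.

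The 3 TG libraries were set against the 3 WT libraries in limma 3.58.1 (R 4.3.3, lmFit, eBayes with trend) on log2(FPKM + 0.1), for genes averaging 0.1 FPKM or more. P-values were adjusted after Benjamini and Hochberg over all of these (threshold 0.05), and the fit was tested on simulated data. Reads were recovered from FPKM times length, which was a whole multiple of 1 step in 100% of values within 0.05 reads. Fold changes on this scale understate those of low genes. Ratios and shares were compared by two-sided exact permutation tests. Intervals for counting treat reads as independent molecules. Spread was compared with genes whose mean FPKM lay within a factor of 1.5.

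The 7 genes, the pathway list and the marker lists (CCK interneuron, GABAergic, glutamatergic, hippocampus, astrocyte, oligodendrocyte, microglia, endothelium, choroid plexus, thalamus, striatum) were chosen with earlier results of these data known. Named genes were the 7 genes, listed pathway genes with an unadjusted p under 0.05, the most abundant gene of each role, genes of the list not tested, the 3 genes most like Cnr1, and Slc1a2. Cnr2, Gna11, Plcb2, Cck and Ppp1r1b fall outside this rule and were named after their values were seen, and Rac1 and Gm26588 were named for their overlap with Daglb and Mgll. Alternatives covered pseudocount, filter, scaling, variance model, voom on recovered reads, biotype, replicate block, a choroid plexus covariate and left-out libraries. Sequence was read from GENCODE M21 transcripts with Python 3.11.15.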

Additional observations from a re-analysis of the deposited data

How the results depend on the processing

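The number of the 7 genes at an adjusted p under 0.05 was 0 in all 18 alternatives to the limma fit, and their smallest adjusted p lay between 0.657 and 1.00. At an unadjusted p under 0.05 it was 0 in all alternatives with more than 1 library in each group. The fit without TG1 and TG2 has 1 TG library, so its count is not given. The number of the 7 genes whose groups do not overlap was 4 without TG1 and TG2, beside 45.3% of all genes tested, and 0 to 3 when each library was left out in turn, beside 18.6% to 25.6%. Cnr1, Mgll and Faah kept their direction in all 18 alternatives. Those of filter, biotype, variance trend and replicate block leave the difference itself unchanged, so they could not alter its direction. The log2 fold change changed sign for Daglb without TG1 and TG2 (-0.0057), and when single libraries were left out the lowest values were -0.013 for Dagla, -0.00092 for Abhd6 and -0.0041 for Napepld, and the highest were 0.26, 0.13 and 0.031. At an unadjusted p under 0.05 there were 2 of the 29 pathway genes in the main fit. There was 1 with a pseudocount of 1, without a filter, with a mean FPKM of at least 1, and with upper-quartile or trimmed-mean scaling. In these settings 5.04% to 6.21% of all genes tested passed. The filter changes which listed genes are tested, and Ppara (mean FPKM 0.715) was not tested at 1 or more. The number of pathway genes was 0 with the choroid plexus covariate, beside 3.37% of all genes tested. It was 0 to 2 when each library was left out, beside 4.08% to 6.63%. None of them had an adjusted p under 0.05 in any alternative. The log2 difference in the 2-AG ratio ranged from -0.093 without WT3 through -0.041 without TG1 to 0.12 without WT2, and that of the anandamide ratio from 0.052 to 0.15. Replicate numbers are shared by the groups, and the labels do not say whether they pair the samples. Deviations of same-numbered libraries correlated by 0.0031 to 0.043, and those of differently numbered libraries by -0.027 to 0.016. Not every library correlated best with its own number. With 3 libraries a group, such small values cannot decide whether the samples are paired. With the replicate block, 1 pathway gene instead of 2 had an unadjusted p under 0.05, beside 5.94% of all genes tested. None of the 7 genes had one, and the 2-AG and anandamide ratios differed by 0.016 and 0.092. With 3 libraries a group, changes inside the intervals given could not be told from 0.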
